A study of Mus musculus with 24 samples.

Results

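Collagens are the triple-helical proteins of the extracellular matrix, and the collagen genes were followed here in 2 regions of the mouse forebrain after a nerve injury, the anterior cingulate cortex (ACC) and the medial prefrontal cortex (mPFC). A gene was a member if its row in the deposited count tables carried a protein-coding symbol of the form Col, number, a, number. This rule took 44 of 33364 genes: 11 fibrillar genes, 8 basement membrane genes, 6 type VI genes and 19 others. The mice were C57BL/6, 3 months old by the labels, of both sexes, and were killed 2 weeks after spared nerve injury (SNI), in which branches of the sciatic nerve are cut, or after a sham operation. Each of the 8 groups (female or male, SNI or sham, mPFC or ACC) had 3 libraries of total RNA, and each library came from 4 to 5 animals pooled, so that the spread between libraries is the spread between pools. Both regions were taken with a 15G puncher, which collects every cell type in its path.

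In fibrillar collagens 3 chains wind into rods that line up as fibrils (types I, II, III, V, XI, XXIV and XXVII). Type IV chains form the network of the basement membrane, which in the brain lies around capillaries and under the pia, and types XV and XVIII sit at its edges. Type VI chains assemble into beaded filaments near cell surfaces. The others include the fibril-associated collagens (types IX, XII, XIV, XVI, XIX, XX and XXII), the membrane-spanning collagens (types XIII, XVII, XXIII and XXV) and the short-chain collagens (types VIII and X). In brain, fibroblasts of the meninges and around vessels are known for types I and III, endothelial cells and pericytes for type IV, and some neurons for type XIX and for type XXV, whose shed part binds amyloid fibrils.

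The sequence before the RefSeq transcription start is shown for 3 genes that the results turn on: Col6a1 and Col23a1, which were higher in the mPFC, and Col3a1, which was lower there. Each window holds the 250 bases upstream of the RefSeq start in GRCm38.p6, read 5′ to 3′ on the strand of the gene, and capitals mark a match on either strand to 1 of 3 motifs. The first is CCAAT. The second, the GC box, reads GGGCGG, or its reverse complement on the other strand. The third, the TATA box, reads TATAAA. Each window shown holds at most 1 match, so no matches overlap. The Col6a1 window is chr10:76726045-76726294 on the minus strand, the Col23a1 window chr11:51289670-51289919 on the plus strand and the Col3a1 window chr1:45311288-45311537 on the plus strand. The GENCODE gene of Col6a1 starts farther upstream than the RefSeq entry, so 124 bases of its window lie inside the annotated gene, and none of the other windows do.
Col6a1: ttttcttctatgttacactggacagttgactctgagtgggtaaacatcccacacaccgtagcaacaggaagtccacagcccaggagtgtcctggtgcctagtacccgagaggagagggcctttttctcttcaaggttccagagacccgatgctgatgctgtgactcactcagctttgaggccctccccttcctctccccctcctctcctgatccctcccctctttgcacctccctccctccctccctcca
Col23a1: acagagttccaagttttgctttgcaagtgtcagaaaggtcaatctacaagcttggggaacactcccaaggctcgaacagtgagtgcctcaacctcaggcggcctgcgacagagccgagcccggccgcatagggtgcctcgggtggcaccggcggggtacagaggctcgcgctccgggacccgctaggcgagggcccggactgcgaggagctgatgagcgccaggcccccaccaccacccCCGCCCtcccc
Col3a1: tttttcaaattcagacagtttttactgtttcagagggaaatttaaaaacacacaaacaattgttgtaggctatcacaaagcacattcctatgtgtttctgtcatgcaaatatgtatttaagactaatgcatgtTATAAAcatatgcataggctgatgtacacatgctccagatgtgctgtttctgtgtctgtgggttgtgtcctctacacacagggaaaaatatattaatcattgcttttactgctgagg
The Col6a1 window holds no match and has 56% G and C. The Col23a1 window has 66% G and C with 1 GC box, and the Col3a1 window 35.2% with 1 TATA box. Over the 38 upstream windows in the table for 35 collagen genes, 22 (57.9%) hold a GC box, 13 (34.2%) CCAAT and 5 (13.2%) a TATA box, against 32.7%, 33.8% and 12.4% of 32851 windows of all genes.

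Several collagen genes are neighbours. Col4a1 and Col4a2 lie head to head on chromosome 8 and their annotated transcripts overlap by 22 bases (chr8:11312805-11312826), Col4a4 and Col4a3 lie head to head 71 bases apart on chromosome 1, and Col4a6 and Col4a5 1308 bases apart on the X chromosome. Col6a2 and Col6a1 follow each other on the same strand of chromosome 10, 85.2 kb apart. Col3a1 and Col5a2 lie tail to tail 24.6 kb apart on chromosome 1. Whether the counting used the strand is not stated, so reads in the overlap of Col4a1 and Col4a2 cannot be split between them.

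The libraries held 23853845 to 32864391 reads assigned to genes, and 3 reads, the floor used here, come to between 0.0913 and 0.126 counts-per-million (CPM). Markers of sex matched the labels in all 24 libraries: Xist had 13914 to 20710 reads in libraries of females and 1 to 79 in those of males. The 8 pan-neuronal marker genes summed to 7256 to 8043 CPM in the mPFC and 8072 to 8843 CPM in the ACC. Pairs of libraries of the same group differed by 2.67 to 19.9 chi-square units per gene, where counting noise alone gives about 1, so no library was a copy of another. In bulk tissue, fewer cells of a type and less RNA per cell cannot be told apart.

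1 library stood apart most in the collagens. Female sham ACC replicate 1 had the highest CPM of the 24 libraries for 12 of 44 collagen genes (27.3%), where it was highest for 4.41% of all genes. The next was female sham mPFC replicate 1, highest for 8 of 44 (18.2%) and for 4.60% of all genes. In female sham ACC replicate 1 Col8a2 had 282 reads, and 17 to 87 in the other 23 libraries. Col8a1, its partner in short-chain networks, had 273 there and 28 to 83 in the others. Col9a3, a fibril-associated chain, had 420 reads against 136 to 223, Col4a3 33 against 4 to 15, Col4a4 45 against 6 to 27 and Col4a6 96 against 34 to 75. The 10 choroid plexus markers summed to 1039 CPM in that library, to 89.2 in male SNI mPFC replicate 2 and to between 5.54 and 13.9 in the others, and Ttr, the transthyretin carrier that defines choroid plexus, had 21811 reads there and 5 to 1975 elsewhere. The 20 meningeal fibroblast markers, a list with no collagen in it, summed to 382 CPM there and to 241 and 261 in the other sham libraries of the female ACC. The part of these cells in the collagen counts was not tested, and results that rest on this library are given with and without it.

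Compared per exon length, in TPM, which is scaled like CPM but after division by exon length (mean ± SD over 24 libraries), Col6a1 had the highest level with 57.4 ± 27.5, followed by the basement membrane pair Col4a2 with 42.5 ± 4.19 and Col4a1 with 27.7 ± 2.55. The order of the first pair turned between the regions: Col6a1 had 81.3 ± 16.9 TPM in the mPFC against 42.4 ± 4.39 for Col4a2, and in the ACC 33.5 ± 7.39 against 42.7 ± 4.17. The 3 genes made 46% of the collagen TPM. Col25a1 came next at 15.0 ± 2.58, then the fibrillar gene Col5a1 at 11.1 ± 1.44, Col6a2 at 10.9 ± 3.15, Col11a2 at 10.5 ± 1.75, Col1a2 at 10.2 ± 2.19, Col1a1 at 9.62 ± 3.48, Col16a1 at 9.44 ± 1.35 and Col19a1 at 9.07 ± 1.46. Among neighbours in this order, the ranges of the 24 libraries were apart only between Col4a2 and Col4a1 and between Col4a1 and Col25a1. The ranges of all other neighbours overlapped, Col6a1 (26.1 to 107 TPM) and Col4a2 (34.2 to 51.5 TPM) included. Col18a1, the multiplexin that yields endostatin, had 3.89 ± 0.65 TPM, Col3a1 1.93 ± 0.86 and Col6a3, the third chain of the common type VI trimer, 1.17 ± 0.28. At the low end, Col6a5 had 1 to 18 reads per library, Col4a3 4 to 33 and Col10a1, the collagen of growth plate cartilage, 0 to 14.

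**Figure D1:**
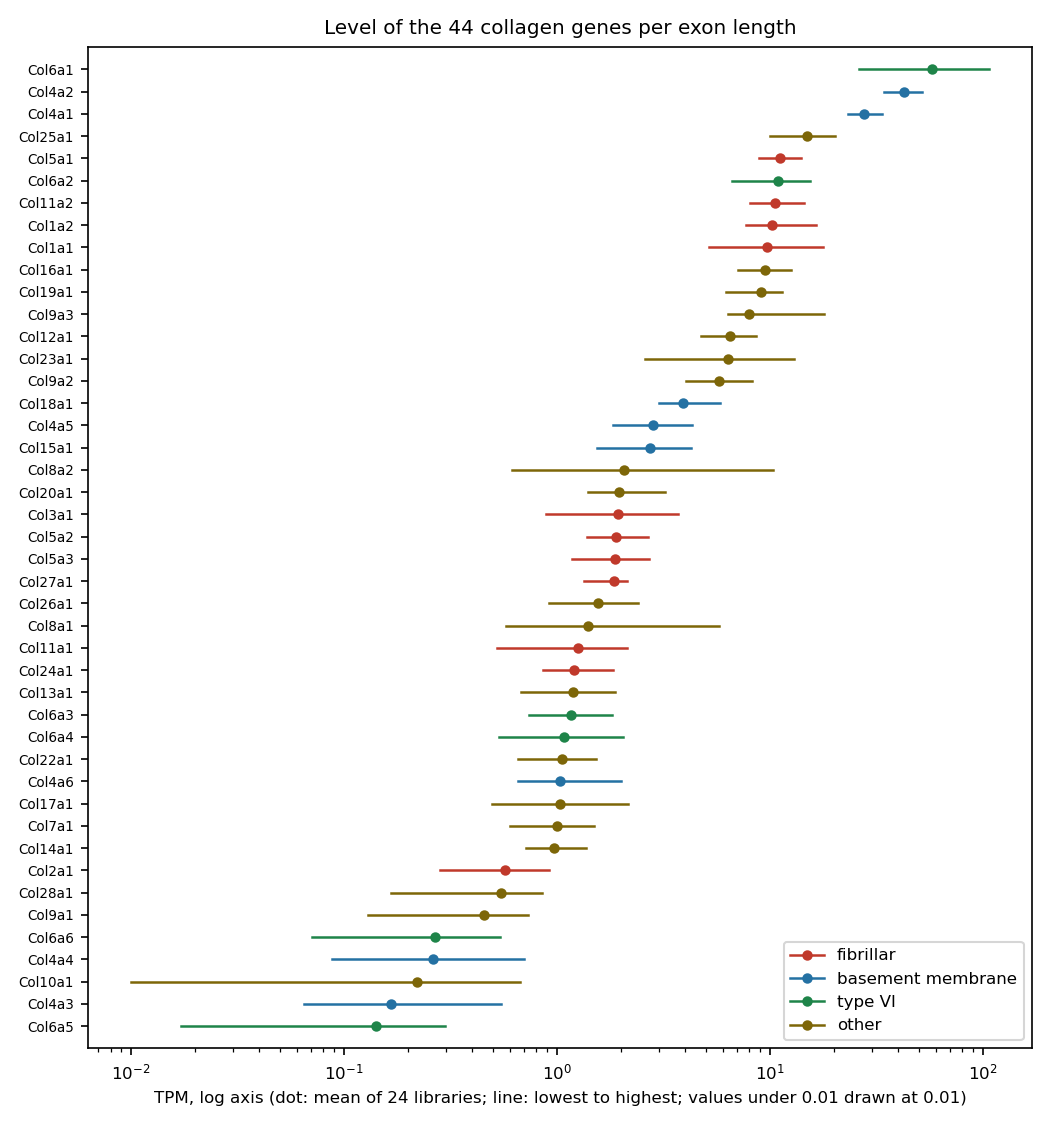
Levels of the 44 collagen genes in TPM (log axis), ordered by their mean. Dots are means over the 24 libraries, lines run from the lowest to the highest library and colours are the 4 classes; Col6a1 leads with 57.4 TPM over both regions, while in the ACC alone Col4a2 is above it, and the long line of Col8a2 reaches the value of 1 library.

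Of the 44 genes, 41 passed the filter on low counts in every one of the 16 comparisons, Col4a3 and Col6a5 passed in some, and Col10a1 in none. In counts of libraries that do not overlap, higher and lower give only the side. Elsewhere a gene is written as higher or lower at a Benjamini-Hochberg adjusted p under 0.1, the threshold of the study. The test was edgeR's quasi-likelihood test, with adjustment over all genes tested. By that rule 29 of the 43 collagen genes tested (67.4%) differed in at least 1 comparison, where 56.6% of all genes tested did. Differences are log2 of the ratio with their standard error (SE). The SNI, region and sex comparisons share libraries, so they are not independent of one another.

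The design implies a comparison of the 2 regions. Over all 4 combinations of sex and treatment, 12 libraries against 12, 11 collagen genes were higher and 13 lower in the mPFC than in the ACC, 24 of 43 tested (55.8%), where 49% of all genes tested were called (24.3% higher and 24.7% lower). Within the classes, type VI had 4 of 6 genes higher and none lower, with a median difference of 0.62. Fibrillar genes had 2 higher and 5 lower of 11 (median -0.14), basement membrane genes none higher and 3 lower of 8 (median -0.15), and the others 5 higher and 5 lower of 18 (median -0.07). The median over all genes was 0.00. Without female sham ACC replicate 1 the class medians were 0.68 for type VI, -0.17 for the fibrillar genes, -0.038 for the basement membrane genes and -0.017 for the others, and over the 24 fits that left out 1 library they ran from 0.57 to 0.68, from -0.22 to -0.081, from -0.24 to -0.038 and from -0.11 to -0.017. Summed within a library, type VI CPM ran from 93.5 to 149 in the mPFC and from 46.3 to 87.6 in the ACC, without overlap, a ratio of the means of 2.08. The fibrillar sums ran from 86.3 to 114 in the mPFC and from 102 to 146 in the ACC, a ratio of 0.84, and those of the basement membrane class from 113 to 156 and from 124 to 155, a ratio of 0.96.

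Type VI was led by Col6a1 (chr10:76708792-76726168, minus strand), the chain that every type VI trimer contains. Its lowest, median and highest CPM were 64.6, 80.8 and 110.2 in the 12 mPFC libraries, and 27.2, 34.0 and 55.4 in the 12 ACC libraries. Every mPFC library lay above every ACC library, as for 2.56% of all genes tested (4.85% did not overlap in either direction). The difference was 1.26 ± 0.08 (SE), or 2.40-fold, with an adjusted p of 2.25e-11 (edgeR). Within the groups it was 1.63 ± 0.07 in sham females, 1.27 ± 0.12 in sham males, 1.40 ± 0.14 in SNI females and 0.78 ± 0.16 in SNI males. It was called in each of these 4 comparisons and again in all 6 fits of each that left out 1 library.

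Col6a2, the chain encoded next to it, had 23.5, 26.2 and 30.4 CPM in the mPFC, against 13, 15.3 and 24.2 in the ACC. Only male SNI ACC replicate 2, at 24.2, reached into the mPFC range, and the same library held the highest ACC value of Col6a1. The Col6a2 difference was 0.73 ± 0.08 (adjusted p = 4.25e-08, edgeR), and 0.82, 0.61, 0.98 and 0.52 in sham females, sham males, SNI females and SNI males. The last was called in 3 of 6 fits that left out 1 library, and not without male SNI ACC replicate 1 (0.43), male SNI ACC replicate 3 (0.35) or male SNI mPFC replicate 1 (0.48). Col6a3, the partner of both chains, had 2.50, 3.39 and 5.03 CPM in the mPFC, against 2.12, 3.04 and 4.80 in the ACC. Its libraries overlapped, and it was higher in the mPFC in SNI females (0.61 ± 0.17, adjusted p = 0.0254, edgeR) and not called in the other 3 comparisons or over all groups. Of the chains that can replace it, Col6a4 was higher over all groups by 0.52 ± 0.16, with 1.53 to 4.11 CPM in the mPFC and 1.10 to 2.64 in the ACC. Col6a5 was higher by 1.38 ± 0.28 on few reads, 7 to 18 per mPFC library and 1 to 10 per ACC library, and Col6a6 was not called.

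Outside type VI, the gene most like it was Col23a1 (chr11:51289920-51583918, plus strand), a membrane-spanning collagen whose ectodomain can be shed. Its lowest, median and highest CPM were 8.0, 12.6 and 17.6 in the mPFC, against 3.60, 4.66 and 6.22 in the ACC. The 2 sets did not overlap, and the difference was 1.35 ± 0.09, or 2.55-fold (adjusted p = 1.39e-11, edgeR). It was 1.57 ± 0.12 in sham females, 1.5 ± 0.15 in sham males, 1.43 ± 0.15 in SNI females and 0.92 ± 0.17 in SNI males, and stayed called in all 24 fits over the 4 comparisons that left out 1 library. Col25a1, the other abundant membrane-spanning collagen, had 42.7, 49.8 and 61.3 CPM in the mPFC, against 30.9, 41.9 and 52.2 in the ACC, which overlap, and was higher by 0.31 ± 0.05 over all groups and in each of the 4 comparisons (0.22 to 0.48). The call was lost in sham females without ACC replicate 2, ACC replicate 3 or mPFC replicate 1, in sham males without ACC replicate 1 or any mPFC replicate, and in SNI females without ACC replicate 1, ACC replicate 3 or mPFC replicate 1, with values of 0.15 to 0.34.

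Further genes higher in the mPFC over all groups were Col22a1, a collagen of tissue junctions, by 0.56 ± 0.11, Col5a3, a minor fibrillar chain, by 0.49 ± 0.09, Col2a1, the chief chain of cartilage, by 0.33 ± 0.15, and the fibril-associated genes Col12a1, by 0.30 ± 0.07, and Col16a1, by 0.16 ± 0.06. Without female sham ACC replicate 1, Col2a1 had an adjusted p of 0.158 (edgeR) and was no longer called. The libraries of the 2 regions overlapped for each of them. Every gene called over all groups stayed called in all 24 fits that left out 1 library except Col2a1 (called in 9), Col8a2 (in 15) and Col4a5 (in 22).

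**Figure D2:**
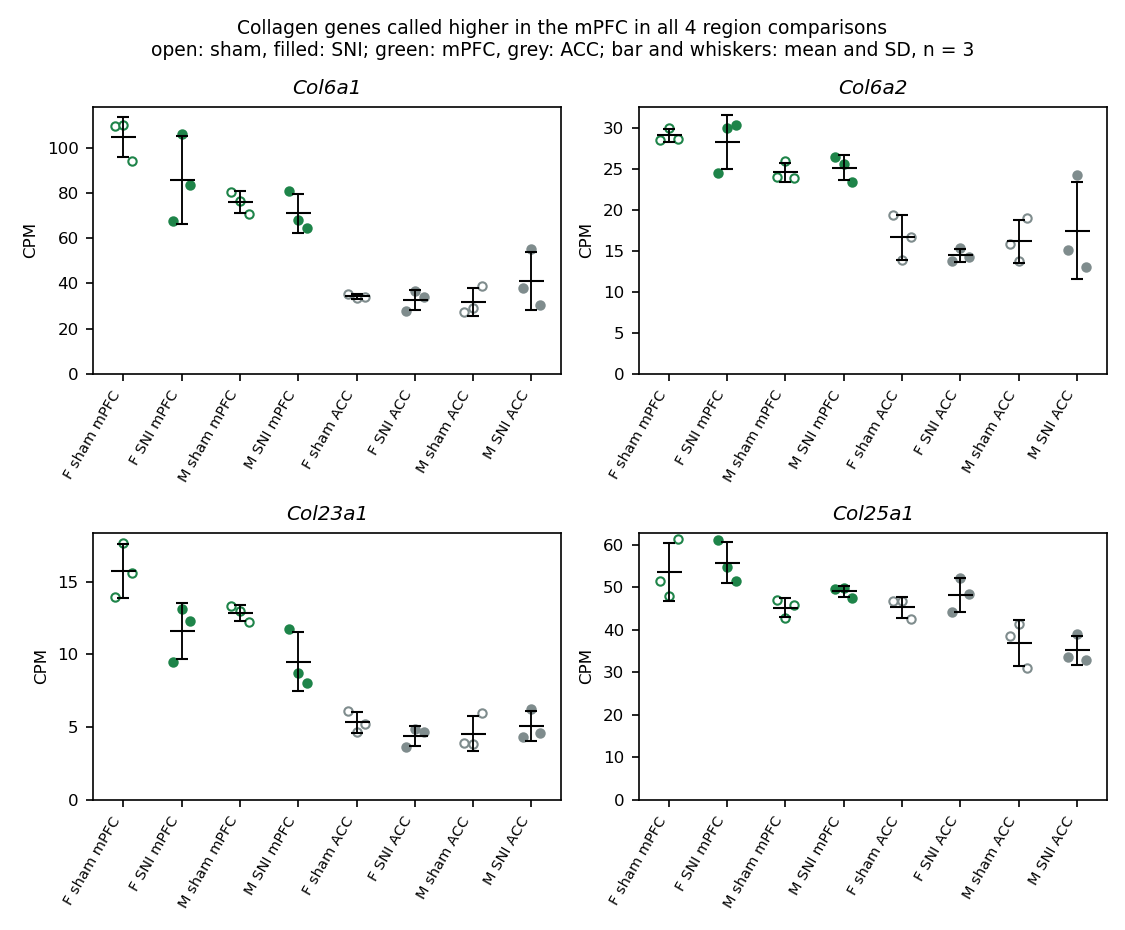
CPM of Col6a1, Col6a2, Col23a1 and Col25a1 in each of the 24 libraries, by group (open circles sham, filled SNI, green mPFC, grey ACC, bar and whiskers mean and SD of 3 libraries). All green points of Col6a1 and Col23a1 lie above all grey points, and those of Col25a1 overlap them.

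In the other direction the fibrillar genes Col3a1, Col11a1 and Col1a1 led. Col3a1 (chr1:45311538-45349706, plus strand), which encodes the chain of type III fibrils of vessel walls and meninges, had a lowest, median and highest CPM of 2.13, 2.98 and 5.26 in the mPFC, against 3.34, 5.78 and 8.82 in the ACC. The ranges overlapped, and the highest mPFC library and the lowest ACC library were both of SNI females. The difference over all groups was -0.88 ± 0.13 (adjusted p = 7.79e-06, edgeR), and it was -1.29 ± 0.20 in sham females, -1.25 ± 0.18 in sham males and -0.93 ± 0.25 in SNI males, each called, while the SNI females gave -0.04, not called.

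Col1a1 (chr11:94936224-94953042, plus strand), the larger part of the type I trimer, had the same pattern. It had 8.17, 10.8 and 15.4 CPM in the mPFC, against 12.9, 16.9 and 27.7 in the ACC, again with some overlap, and was lower in the mPFC by -0.70 ± 0.11 on the log2 scale (adjusted p = 2.89e-05, edgeR). By group the difference was -0.86 ± 0.17 in sham females, -1.05 ± 0.21 in sham males and -0.82 ± 0.19 in SNI males, each called, and -0.04 in SNI females, not called. The study's primers for this gene, shown because they mark the exons that its own PCR read, were both found in the transcript Col1a1-201.
Col1a1 forward: gctcctcttaggggccact
Col1a1 reverse: ccacgtctcaccattgggg
The forward primer lies in exon 1 (chr11:94936398-94936416) and the reverse primer in exon 2 (chr11:94937947-94937965), and they bound 103 bases of the spliced transcript.

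Col1a2, the second type I chain, was called in opposite directions in 2 of the groups. In sham males it had 24.9, 23.8 and 24.9 CPM in the mPFC, against 34.0, 26.8 and 43.0 in the ACC, lower in the mPFC by -0.49 ± 0.14 (adjusted p = 0.0423, edgeR). In SNI females it had 33.5, 28.6 and 35.9 in the mPFC, against 27.2, 26.1 and 27.5 in the ACC, higher in the mPFC by 0.29 ± 0.08 (adjusted p = 0.0225, edgeR). The libraries of the regions did not overlap in either case, as for 28% and 37.6% of all genes tested in those comparisons. The value in SNI females stayed called in all 6 fits that left out 1 library, and that in sham males was lost without mPFC replicate 1 (-0.51), 2 (-0.47) or 3 (-0.51). Over all groups Col1a2 was lower by -0.23 ± 0.08. The difference between these groups was not tested, since both sex and treatment differ. The change of the region difference with SNI in females was 0.64 with a 95% interval from 0.21 to 1.07 and an adjusted p of 0.428 (edgeR), so it was not called, and it was 0.39 without female sham ACC replicate 1.

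Col11a1, which sets fibril diameter with type V chains, had 1.60, 2.87 and 4.0 CPM in the mPFC, against 3.43, 4.69 and 6.45 in the ACC. Only a few libraries overlapped, and it was lower in the mPFC in all 4 comparisons (-0.89, -0.85, -0.73 and -0.78 in sham females, sham males, SNI females and SNI males). Over all groups the value was -0.82 ± 0.12 (adjusted p = 7.66e-06, edgeR), and Col11a2, its partner, was lower by -0.32 ± 0.05. The Col11a1 call was lost in sham females without ACC replicate 2 (-0.68), ACC replicate 3 (-0.85) or mPFC replicate 2 (-0.66), and in sham males without mPFC replicate 2 (-0.80) or 3 (-0.66). Col5a1, the first chain of type V, was called in SNI males alone (-0.26 ± 0.07, not without mPFC replicate 2), with 18.2 to 25.8 CPM in the ACC and 19.3 to 27.9 in the mPFC. Col19a1, a fibril-associated collagen that interneurons make at synapses, was the only collagen besides Col6a1 and Col23a1 whose libraries did not overlap between the regions: 10.2, 13 and 14.8 CPM in the mPFC, against 15.1, 16.9 and 19 in the ACC. It was lower in the mPFC by -0.40 ± 0.05 (adjusted p = 1.65e-07, edgeR) and in each of the 4 comparisons (-0.30, -0.48, -0.43 and -0.37 in the same order). The call in sham females was lost without ACC replicate 2 or mPFC replicate 2 (-0.23 each).

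**Figure D3:**
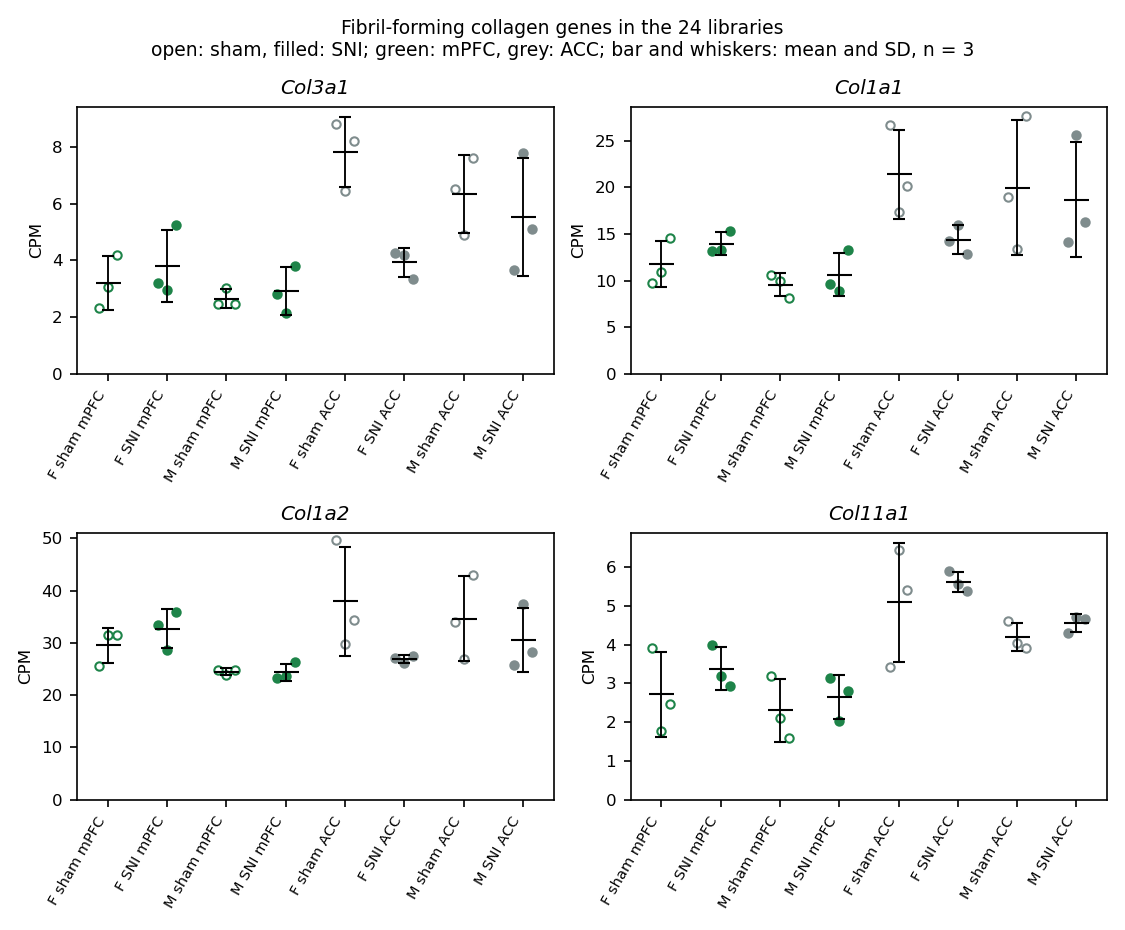
CPM of the fibrillar genes Col3a1, Col1a1, Col1a2 and Col11a1 in each of the 24 libraries, drawn as in the plot of the genes higher in the mPFC. For Col3a1 the sham ACC libraries of females (6.45 to 8.82 CPM) lie above their mPFC libraries (2.32 to 4.21), while the SNI females of the 2 regions overlap.

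The basement membrane pair that makes most of the class was not called over all groups. Col4a1 (chr8:11198423-11312826, minus strand) had 41.5, 49.8 and 58.8 CPM in the mPFC, against 44.9, 48.4 and 56.1 in the ACC, and Col4a2 (chr8:11312805-11449287, plus strand) had 54.3, 66.8 and 80.2 in the mPFC, against 59.9, 65.6 and 77.6 in the ACC. The differences were -0.01 and -0.02, with 95% intervals from -0.10 to 0.07 and from -0.11 to 0.08. Col4a1 was higher in the mPFC in sham females (0.19 ± 0.07, adjusted p = 0.0897, edgeR), not without female sham ACC replicate 1 (adjusted p = 0.122, edgeR), and Col4a2 in SNI females (0.16 ± 0.06, adjusted p = 0.0759, edgeR). Each was called in 1 of 6 fits that left out 1 library, without mPFC replicate 3 for Col4a1 and without mPFC replicate 1 for Col4a2. Col15a1, which links basement membranes to the fibrils beneath them, had 2.39, 3.31 and 4.19 CPM in the mPFC, against 4.12, 4.91 and 6.40 in the ACC, and was lower in the mPFC by -0.66 ± 0.09 (adjusted p = 1.34e-06, edgeR). Col4a6 and Col4a5, the X-linked pair, were lower by -0.45 ± 0.13 and -0.21 ± 0.08, and Col4a5 was not called without female sham ACC replicate 1 (adjusted p = 0.109, edgeR) or without female sham mPFC replicate 1 (-0.17). Col4a4, with 6 to 45 reads per library, was higher in the mPFC in SNI males (1.06 ± 0.33, adjusted p = 0.0474, edgeR), and was lost without ACC replicate 1 (0.99), ACC replicate 2 (0.99) or mPFC replicate 2 (0.89). Col18a1 was called in no comparison.

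The remaining genes lower in the mPFC over all groups were Col8a2 (-0.63 ± 0.28), Col8a1 (-0.51 ± 0.19), Col17a1, a collagen of epithelial anchoring (-0.51 ± 0.13), and Col9a2 (-0.29 ± 0.09). For the type VIII pair the call leaned on 1 library. In sham females Col8a2 and Col8a1 were lower by -1.77 ± 0.70 and -1.75 ± 0.48, and without female sham ACC replicate 1 the values were -0.26, not called, and -0.84, still called. The Col8a2 call was also lost without mPFC replicate 1 (-1.42) or 2 (-1.75). Over all groups they became -0.25, not called, and -0.28, still called. That library was also the one with 1039 CPM of choroid plexus markers.

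By group, the collagen genes called between the regions were 10 higher and 7 lower of 43 in sham females (39.5%), where 14% of all genes were higher and 14.5% lower (28.5%). In sham males 6 were higher and 7 lower of 42 (31.0%), against 7.46% and 6.7% of all genes (14.2%). In SNI females 11 were higher and 4 lower of 42 (35.7%), against 13.7% and 13.9% (27.6%), and in SNI males 6 were higher and 9 lower of 41 (36.6%), against 10.4% and 10.6% (21%). Libraries of the regions did not overlap for 11 collagen genes higher and 9 lower in sham females (17.5% and 20.2% of all genes), 7 and 10 in sham males (14.3% and 13.7%), 10 and 6 in SNI females (18.2% and 19.4%), and 7 and 8 in SNI males (16.9% and 15.9%). Genes called in all 4 comparisons were 6 of the 41 tested in each (14.6%), against 7.16% of all genes: Col6a1, Col6a2, Col23a1 and Col25a1 higher, and Col11a1 and Col19a1 lower. The share with the same sign in all 4 was 48.8%, against 47.2% of all genes. The counts moved with single libraries. In sham females 17 became 10 without ACC replicate 2 or mPFC replicate 2, and 11 without mPFC replicate 1, with 13.7%, 13.3% and 17.4% of all genes called. In sham males 13 became 7 without mPFC replicate 3 and 8 without mPFC replicate 2, with 6.61% and 6.7% of all genes. Without female sham ACC replicate 1, 15 genes were called in sham females, and 23 over all groups, with 21.8% and 47% of all genes.

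**Figure D4:**
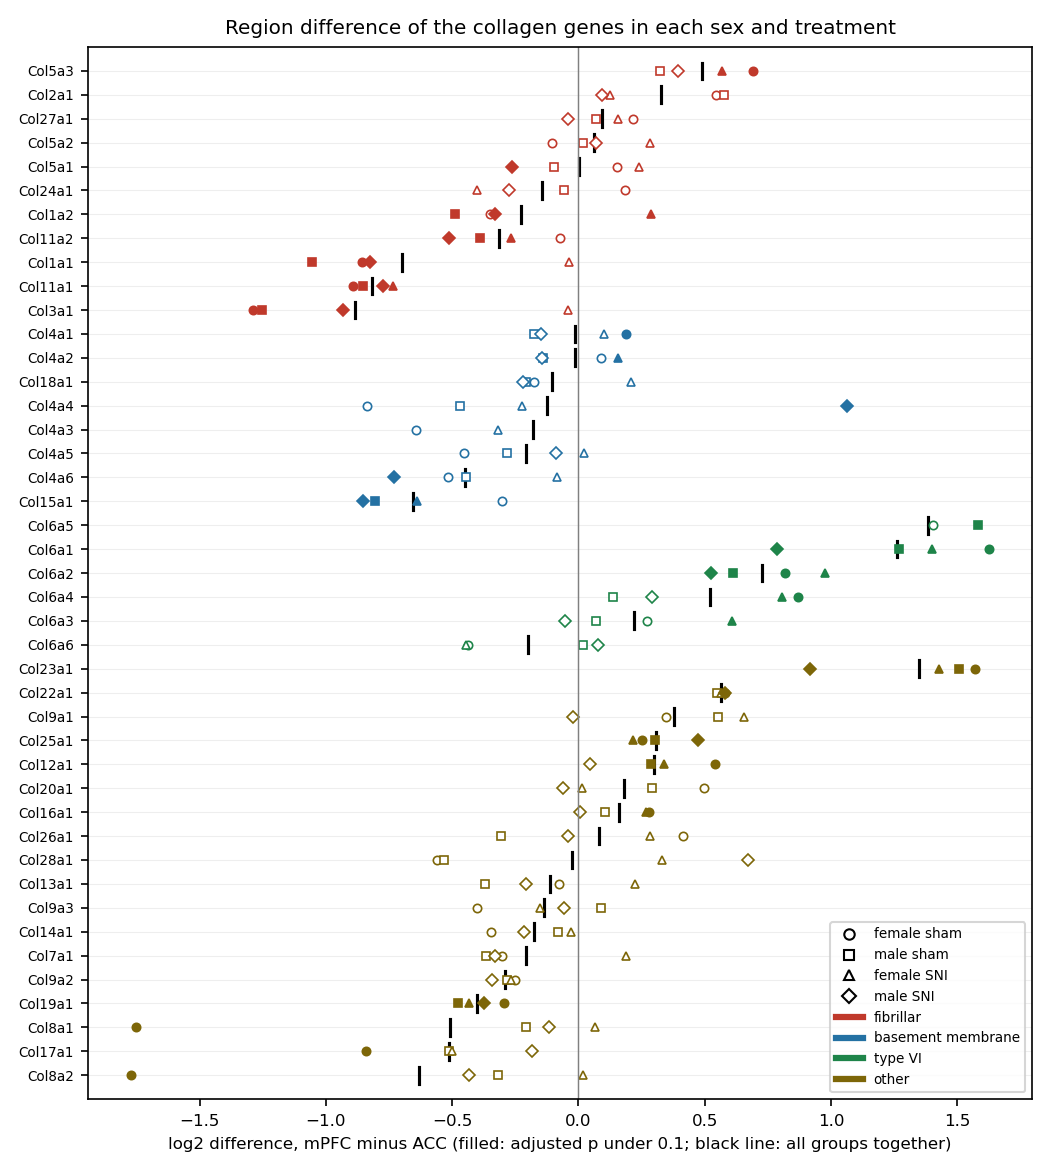
Log2 difference between the mPFC and the ACC for each collagen gene tested, in each sex and treatment (coloured points, filled where the adjusted p was under 0.1) and over all groups (black lines). Col6a1, Col6a2 and Col23a1 lie to the right of 0 in every group, Col6a3 in 3 of 4 and Col6a6 in 2 of 4, and Col3a1, Col11a1 and Col1a1 to the left, with the SNI females of Col3a1 and Col1a1 at -0.04.

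Markers of the cells known to make collagen also differed between the regions. Summed over the list, the 20 fibroblast markers had 195 ± 27.2 CPM in the mPFC (160.7 to 255) and 251 ± 53.0 in the ACC (193 to 382). Without female sham ACC replicate 1 the ACC sum was 239 ± 34.9 CPM (193 to 311). With all libraries, 15 of 19 tested were lower and 1, Pdgfra, higher in the mPFC, with a median of -0.58, where 24.7% of all genes were lower and 24.3% higher. In SNI females, where Col1a1 and Col3a1 were not called, 2 fibroblast markers were higher and none lower, with a median of 0.02, where 13.7% of all genes were higher and 13.9% lower. The 14 endothelial markers were all lower in the mPFC (405.9 against 482 CPM, with 1 mPFC library at 456 inside the ACC range), and 9 of 12 mural markers were lower (249 against 304 CPM). The called type VI genes had the opposite sign to the median of all 3 lists. The part of these cells in the collagen differences was not tested.

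Genes that act on collagens were read over all groups in 6 lists, of whose tested genes the following were called, with at most 4 named by the smallest adjusted p. Of 24 genes for synthesis and folding 5 were higher and 6 lower in the mPFC. They include the collagen galactosyltransferases Colgalt1 (0.20) and Colgalt2 (0.37) and the lysyl hydroxylase Plod2 (0.31), all higher, and Tmem38b, a channel of the endoplasmic reticulum (-0.17). Of 14 genes for procollagen processing and crosslinking 4 were higher and 7 lower: Pxdn, the peroxidase that crosslinks type IV collagen (0.56), the N-propeptidase Adamts2 (0.66) and the tolloid protease Tll2 (0.90) were higher, and the C-proteinase enhancer Pcolce2 (-0.74) lower. Of 12 receptors 2 were higher and 6 lower, with Adgrg1, a receptor for type III collagen, at 0.37, and Antxr1, Itga1 and Itgb1 at -0.37, -0.38 and -0.23.

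The list of proteins that sit on fibrils had 3 of 24 higher and 14 lower, led by the small leucine-rich proteoglycans Ogn (-1.38), Fmod (-0.86) and Omd (-1.36) and by Tgfbi (-0.46), and Ogn and Fmod are also on the fibroblast list. Of 17 basement membrane partners 2 were higher and 9 lower. The integrin ligand Npnt (-1.5) and the laminin chain Lama2 (-0.27) were lower, and the laminin chain Lamb1 (0.66) higher. Of 19 genes for collagen breakdown 4 were higher, among them the inhibitor Timp2 (0.53) and the protease Mmp24 (0.30), and 10 lower, among them Ctsb (-0.21) and Adamts5 (-0.73). These shares stand against the 24.3% of all genes higher and 24.7% lower.

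The comparison of SNI with sham gave few calls. In the female ACC 1 of 42 collagen genes was called, Col3a1, where 0.024% of all genes tested were (0.018% lower). Its CPM were 8.82, 6.45 and 8.23 in the sham libraries (221, 160 and 221 reads) and 4.27, 4.18 and 3.34 in the SNI libraries (128, 122 and 82 reads). Every SNI library lay below every sham library. The difference was -0.99 ± 0.14, with a 95% interval from -1.31 to -0.68 and an adjusted p of 0.067 (edgeR). It was -0.90 ± 0.15 without female sham ACC replicate 1, with an adjusted p of 0.130 (edgeR), and over the 6 fits that left out 1 library it ran from -1.11 to -0.89 and was called in 1, the fit without female sham ACC replicate 2.

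Col3a1 was not alone in its direction there, but the other members missed the threshold. Below 0 were 33 of 42 genes, where 50.4% of all genes tested were, with a median of -0.21. All 8 basement membrane genes (median -0.36) and all 5 type VI genes tested (median -0.22) were below 0, as were 6 of 11 fibrillar genes (median -0.10) and 14 of 18 others (median -0.24). These values moved with female sham ACC replicate 1. Without it 29 of 42 genes were below 0 with a median of -0.088, 5 of 8 basement membrane genes (median -0.047), 4 of 5 type VI genes (median -0.085), 8 of 11 fibrillar genes (median -0.15) and 12 of 18 others (median -0.11). The SNI and sham libraries did not overlap for 10 collagen genes, each lower in SNI, where 5.59% of all genes were lower without overlap and 6.25% higher, and 12 of 42 (28.6%) had an unadjusted p under 0.05, as 6.67% of all genes did. Without female sham ACC replicate 1 that count was 8 of 42 (19%), against 5.09% of all genes. The collagen genes share libraries and are not independent of one another, so these counts carry no test. Col1a1 had 26.7, 17.4 and 20.1 CPM in sham and 14.3, 16 and 12.9 in SNI, a difference of -0.57 ± 0.13 (adjusted p = 0.445, edgeR). The study listed Col1a1 as well as Col3a1 among the genes lower there after SNI, and called more genes there than the 4 called here. Its gene set analysis, not repeated here, reported collagen and extracellular matrix sets as lower there, and its protein network had matrix genes as hubs. The study also assayed Col1a1 by PCR in separate individual samples, and reported that the PCR bore out its sequencing. The Col1a1 sham and SNI libraries did not overlap here.

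Col1a2 (-0.50 ± 0.14) and Col6a3 (-0.64 ± 0.18) likewise did not overlap and missed the threshold, and Col6a1 and Col6a2 had values of -0.07 ± 0.08 and -0.21 ± 0.10. Without female sham ACC replicate 1 the values were -0.38 for Col1a1, -0.26 for Col1a2, -0.60 for Col6a3, -0.28 for Col8a1 (from -1.19) and 0.34 for Col8a2 (from -1.16). The fibroblast markers of the female ACC had the same sign. Their sum was 382, 241 and 261 CPM in sham and 218, 218 and 219 in SNI, and 17 of 19 were below 0 (median -0.43), none called. These markers were not read in the fit without female sham ACC replicate 1. The part of these cells in the Col3a1 difference was not tested.

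In the other 3 comparisons of SNI with sham edgeR called no collagen gene, nor did DESeq2. At an unadjusted p under 0.05 there were 6 of 42 in the mPFC of females (12.1% of all genes), 5 of 42 in that of males (11.2% of all genes) and 2 of 41 in the male ACC (4.48% of all genes). Of all genes, 0.00592%, 0.494% and 0.00599% were called in the same order. The SNI and sham libraries did not overlap for 1 collagen gene higher and 4 lower after SNI in the female mPFC (7.37% and 7.62% of all genes), for 4 higher and 1 lower in the mPFC of males (7.43% and 9.44%) and for none higher and 3 lower in the ACC of males (4.53% and 3.67%, 8.2% in all). Col3a1 had a value of 0.26 ± 0.25 for females in the mPFC, 0.14 ± 0.20 for males there and -0.21 ± 0.25 for males in the ACC. Col1a1 had 0.25 ± 0.13, 0.15 ± 0.14 and -0.10 ± 0.26 in the same order. The 95% interval of Col3a1 in the male ACC ran from -0.76 to 0.35.

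Col6a1 had 110.0, 110.2 and 94.6 CPM in the sham and 67.8, 106.4 and 83.7 in the SNI libraries of the female mPFC, a difference of -0.29 ± 0.13 that was not called and whose libraries overlapped. In the male mPFC it had 80.6, 76.5 and 70.9 in sham and 81.0, 68.0 and 64.5 in SNI (-0.09 ± 0.08), and in the male ACC 27.2, 29.2 and 38.9 in sham and 37.8, 55.4 and 30.5 in SNI (0.37 ± 0.20). In the male mPFC 2 genes of the collagen lists were lower after SNI, Adamts2 by -0.48 (adjusted p = 0.0558, edgeR) and Adamts4, an aggrecan-cleaving protease, by -0.52 (adjusted p = 0.0722, edgeR).

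**Figure D5:**
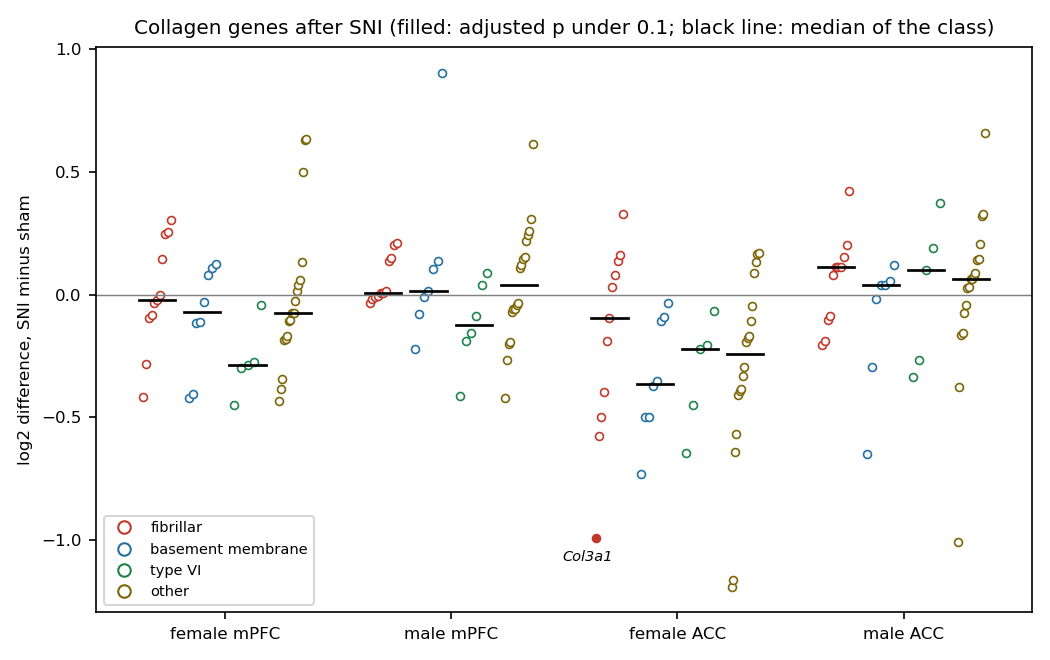
Log2 difference between SNI and sham for each collagen gene tested, by sex and region and by class (open circles not called, filled called, black lines the class medians). Col3a1 in the female ACC, at -0.99, is the 1 filled point, and the class medians of that comparison run from -0.36 to -0.10, where the -0.36 of the basement membrane class becomes -0.047 without female sham ACC replicate 1.

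Whether the response to SNI differed between the sexes or the regions was tested with interaction terms. None of 43 collagen genes tested was called in the mPFC (2 at an unadjusted p under 0.05, 4.65%, against 15.8% of all genes) and none of 42 in the ACC (6, 14.3% against 5.92%) for sex by SNI, and for region by SNI none of 43 in females (4, 9.30% against 11.1%) or in males (3, 6.98% against 3.19%), by edgeR or by DESeq2, and no gene of the table was called by edgeR in any of them (0% of all genes). These results moved with single libraries. Without male sham ACC replicate 3, 4 collagen genes and 9.65% of all genes were called for sex by SNI in the ACC. Without female sham mPFC replicate 3, 3 collagen genes and 18.25% of all genes were called for sex by SNI in the mPFC. For region by SNI in females it was 4 and 11.6% without that library. For Col3a1 the region by SNI term in females was 1.25 with a 95% interval from 0.58 to 1.92 (adjusted p = 0.428, edgeR), and the sex by SNI term in the ACC was -0.80 with an interval from -1.49 to -0.11 (adjusted p = 0.753, edgeR). For Col6a1 the region by SNI term in males was -0.47 with an interval from -0.99 to 0.04.

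Between the sexes, Col6a1 was the 1 collagen gene of 42 called in the sham mPFC, where 0.177% of all genes were (0.0769% higher in females). Its CPM were 110.0, 110.2 and 94.6 in females and 80.6, 76.5 and 70.9 in males. The libraries did not overlap, and the difference was 0.47 ± 0.07 (adjusted p = 0.0441, edgeR). It ran from 0.42 to 0.53 in the fits that left out 1 library and was called in 2 of 6, those without female replicate 3 or male replicate 1. In these libraries 35 of 42 collagen genes were above 0 in females and 7 below, with a median of 0.25. Of all genes 48.1% were below 0, with a median of 0.007. Over the 6 fits that left out 1 library the collagen median ran from 0.21 to 0.29. For 14 collagen genes the libraries did not overlap, each higher in females, where 6.67% of all genes were higher without overlap.

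On the same side were Col6a2 with 0.25 ± 0.07 and Col23a1 with 0.30 ± 0.10, neither called. Fn1, the fibronectin gene, was called higher in females at 0.38 (adjusted p = 0.0534, edgeR). In the sham ACC edgeR and DESeq2 called none of 41 collagen genes (4, or 9.76%, at an unadjusted p under 0.05 against 6.64% of all genes, with 0.0958% of all genes called), and Col6a1 had a difference of 0.11 ± 0.12. The sex by region term of Col6a1 in sham animals was 0.35 with a 95% interval from 0.03 to 0.67 (adjusted p = 0.628, edgeR).

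Over the 24 libraries the log2 CPM of Col6a1 followed that of Col23a1 with a Pearson correlation of 0.97 and that of Col6a2 with 0.95. All points carry the region difference, and within the 12 mPFC and the 12 ACC libraries the values with Col23a1 were 0.83 and 0.78. Of 15133 genes with at least 10 reads in every library, those most like Col6a1 outside the collagens were Ppm1f, Hap1, Necab2, Rab26 and Grk3, each at 0.96 or 0.97. Col3a1 followed Col1a1 with 0.94 (0.86 within the mPFC and 0.89 within the ACC), and outside the collagens it was most like Cav1 (0.93), Serping1 (0.92), Igf2 (0.91), Aebp1 (0.91) and Foxc1 (0.90). Igf2 is also on the fibroblast list. Col6a1 and Col3a1 had a correlation of -0.63 over all libraries, and of 0.02 within the mPFC and 0.29 within the ACC.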

How the data were processed

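Total RNA of pooled mPFC and ACC tissue was sequenced. The authors trimmed the reads with Trimmomatic 0.36, dropped ribosomal reads by alignment to Rfam (Bowtie2 2.33), aligned what was left with HISAT2 2.1.0 and counted them per gene with HTSeq 0.9.1. The authors deposited 1 table of raw counts for each sex and region. GRCm38 is the build in the submitters' processing notes. The annotation release and the strand mode are not given in the sources used here, and overlapping genes may share reads.

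Symbols, coordinates and exon lengths came from GENCODE M21, which holds all 33364 identifiers, and upstream sequences from RefSeq. Samples were grouped by their labels. Counts were tested with R 4.3.3, edgeR 4.0.16 and limma 3.58.1: TMM factors, filterByExpr (count 10, total 15), and the legacy quasi-likelihood F-test, with Benjamini-Hochberg adjustment over all genes and a threshold of 0.1, as in the study's methods. Pairwise comparisons used their own 6 libraries. The region difference over all groups averaged 4 contrasts of 1 model of 24 libraries. CPM used TMM library sizes. For the correlations between genes 0.1 was added to CPM before logs. The GC correction and the check of replicate numbers used a prior count of 2. The steps were tested on simulated data. Replicates are pools, and p-values measure the spread between them.

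The alternatives were DESeq2 1.42.0, scaling by RLE, testing without the filter, a stricter filter (10 or more reads in each library), the current quasi-likelihood method, one 8-group model, the replicate number as a block, a GC correction, both together, and leaving out each library. Named are every collagen gene called, the 3 of the highest level in each class, and Col1a1, Col1a2, Col3a1, Col6a1, Col6a2 and Col6a3. The members, lists and tests were chosen with earlier results of these data known. A result for a gene of the basement membrane list is not reported here.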

Additional observations from a re-analysis of the deposited data

Results flagged for a closer look

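For 5 collagen genes the libraries did not overlap in 2 comparisons of the same kind while the differences had opposite signs. Within a single SNI or region comparison by group, the libraries of 8.2% to 37.7% of all genes did not overlap. The share of all genes with such an opposite pair was not counted, so the 5 genes are given as values only. Col28a1, a low gene with 5 to 24 reads per library, had a region difference (mPFC against ACC) of -0.56 in sham females and -0.53 in sham males and of 0.67 in SNI males. For males the change with SNI was tested and was 1.21 with a 95% interval from 0.21 to 2.22 and an adjusted p of 1.0 (edgeR). Between sham females and SNI males it was not tested. Col1a2 had a region difference of -0.49 in sham males and 0.29 in SNI females, not tested against each other.

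After SNI, Col8a1 had a difference of 0.63 in the female mPFC and -1.19 in the female ACC, and the region by SNI term was 1.82 with an interval from 0.57 to 3.07 (adjusted p = 0.428, edgeR). Without female sham ACC replicate 1 the ACC value was -0.28 and the term 0.91. Col4a4, on 6 to 27 reads in the male libraries, had 0.91 in the male mPFC and -0.65 in the male ACC, with a term of 1.54 and an interval from 0.48 to 2.61 (adjusted p = 1.0, edgeR). Col16a1 had 0.24 in the male mPFC and -0.11 in the female ACC, not tested against each other.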

How the results depend on the processing

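The counts of called collagen genes between the regions stayed within 1.5 times under every alternative that kept all libraries. The small counts moved more. Without a filter on low counts there were 2 in SNI against sham of the female mPFC and 2 of the male mPFC, 8 of the female ACC, 6 between the sexes in the sham mPFC, 1 in sex by SNI of the mPFC, 5 and 1 in region by SNI of females and males, and 4 in sex by region. Of all genes, 2.19%, 2.01%, 1.38%, 1.575%, 2.79%, 2.16%, 0.407% and 0.885% were called without the filter, in the same order. For the female ACC DESeq2 called 2 collagen genes and 0.222% of all genes, and one 8-group model called 0 and 0%. The cause was not tested. Leaving out 1 library gave 0 to 3 in the female ACC, 0 to 5 in the female mPFC, 0 to 1 in the male ACC and 0 to 1 in the male mPFC for SNI, 0 to 8 between the sexes in the sham mPFC, 10 to 21, 7 to 14, 11 to 18 and 11 to 15 between the regions in sham females, sham males, SNI females and SNI males, 0 to 4 for region by SNI in females, and 0 to 4 and 0 to 3 for sex by SNI in the ACC and the mPFC. The library behind the highest female mPFC and sex counts was female sham mPFC replicate 3, without which 15.9% and 15.5% of all genes were called. Without male sham ACC replicate 3, 13.55% of all genes were called for SNI in the male ACC and 9.65% for sex by SNI in the ACC.

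In 0 of 10 comparisons was every correlation between the deviations of same-numbered replicates over 0.1. These correlations ran from -0.311 to 0.252, and those between other numbers from -0.292 to 0.254. A library correlated best with its own number in 28 of 60 cases. With ranges that overlap, these values cannot settle whether the numbers pair the pools, and the main tests were unpaired. With the replicate block 2 collagen genes were called in SNI against sham of the male mPFC and 2 between the sexes in the sham mPFC. Of all genes, 4.385% and 0.532% were called in these fits. With the GC correction beside the block the counts were 2 and 3, against 2.28% and 1.63% of all genes.

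No called value of the genes named here changed sign under these alternatives. Among values that were not called, leaving out 1 library turned the sign in several cases. After SNI these include Col3a1 (-0.055 to 0.49) in the female mPFC, and Col1a1 (-0.035 to 0.26) and Col3a1 (-0.090 to 0.32) in the male mPFC. They also include Col6a1 (-0.15 to 0.040) in the female ACC, and Col1a1 (-0.40 to 0.21) and Col3a1 (-0.53 to 0.024) in the male ACC. The sign of Col8a2 after SNI in the female ACC turned without female sham ACC replicate 1, with the values given above. Between the regions it turned for Col6a3 in sham males (-0.042 to 0.13) and SNI males (-0.28 to 0.28). It also turned for Col1a1 (-0.11 to 0.043) and Col3a1 (-0.36 to 0.12) in SNI females.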
